A study of Homo sapiens with 2 samples.

Results

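Antisense long noncoding RNAs are named here by the suffix -AS, with or without a number, after the gene on the other strand. They were chosen by their level, as every single symbol with that suffix whose greater FPKM (fragments per kilobase of transcript, scaled to the mapped fragments of the library) of the 2 libraries was at least 0.5, so the levels themselves are a description. The table held 979 such symbols, of which 278 (28.4%) were members, 289 were above 0 but under the limit, and 412 were listed at 0 in both libraries. RNA came from PLC/PRF/5, an established human hepatocellular carcinoma line, kept in hypoxia. The genotype of 1 library was NFX1 overexpression, NFX1 being a transcription factor with zinc fingers, and that of the other was the empty vector. Both cultures were hypoxic, and the line is a single one. No group had a replicate and nothing could be tested, so each difference compares these 2 libraries and not the conditions.

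An antisense RNA is transcribed from the strand opposite its sense gene. Some start beside the sense promoter and run away from it (divergent or head-to-head pairs), some lie within the sense gene, and some meet its other end (tail-to-tail pairs). Such RNAs are often short-lived and low, being degraded by the nuclear exosome, and single members are known to act on chromatin, splicing, mRNA stability or microRNAs. The suffix describes a position, not a function.

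Promoter sequences from RefSeq (build GRCh38.p14, from 250 bases before the annotated start to 50 after it) were matched by symbol to 210 of the 278 members. The 5 below belong to members that turn up among the greatest changes between the libraries, the first 3 with a higher level in the NFX1 library and the last 2 with a lower one. They lie at chr22:17159139-17159438 (plus strand, CECR5-AS1, now HDHD5-AS1), chr10:34815518-34815817 (plus, PARD3-AS1, now PARD3-DT), chr2:218367853-218368152 (minus, CATIP-AS1), chr11:1572491-1572790 (plus, KRTAP5-AS1) and chr5:88268766-88269065 (plus, TMEM161B-AS1, now TMEM161B-DT). Capitals mark 3 motifs on either strand. ACGTG is the core of a hypoxia response element and is also part of the E-box CACGTG. The GC box, bound by Sp factors, is GGGCGG here. NF-Y binds the third motif, CCAAT.
CECR5-AS1: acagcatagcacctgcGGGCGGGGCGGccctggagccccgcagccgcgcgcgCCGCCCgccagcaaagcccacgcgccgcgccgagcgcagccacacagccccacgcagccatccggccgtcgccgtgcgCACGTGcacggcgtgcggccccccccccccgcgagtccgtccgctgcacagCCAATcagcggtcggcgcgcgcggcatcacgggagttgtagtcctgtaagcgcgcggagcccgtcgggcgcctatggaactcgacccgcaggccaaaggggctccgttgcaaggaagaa
PARD3-AS1: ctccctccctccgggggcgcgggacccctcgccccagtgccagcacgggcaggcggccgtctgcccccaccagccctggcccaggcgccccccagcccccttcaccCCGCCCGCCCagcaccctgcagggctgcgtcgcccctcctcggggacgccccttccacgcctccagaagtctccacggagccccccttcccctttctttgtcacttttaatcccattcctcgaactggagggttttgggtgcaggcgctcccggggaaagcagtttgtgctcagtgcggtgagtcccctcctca
CATIP-AS1: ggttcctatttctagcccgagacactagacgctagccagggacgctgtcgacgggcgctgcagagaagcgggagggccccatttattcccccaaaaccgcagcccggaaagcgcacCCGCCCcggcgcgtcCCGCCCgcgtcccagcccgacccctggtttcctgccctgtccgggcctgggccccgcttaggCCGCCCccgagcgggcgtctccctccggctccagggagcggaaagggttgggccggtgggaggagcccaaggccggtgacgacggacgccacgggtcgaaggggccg
KRTAP5-AS1: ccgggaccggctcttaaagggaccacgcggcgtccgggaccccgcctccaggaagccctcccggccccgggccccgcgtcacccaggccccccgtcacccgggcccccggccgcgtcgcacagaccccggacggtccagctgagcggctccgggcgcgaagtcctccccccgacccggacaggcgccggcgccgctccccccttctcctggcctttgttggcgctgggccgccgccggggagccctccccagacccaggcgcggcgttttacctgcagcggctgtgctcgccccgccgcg
TMEM161B-AS1: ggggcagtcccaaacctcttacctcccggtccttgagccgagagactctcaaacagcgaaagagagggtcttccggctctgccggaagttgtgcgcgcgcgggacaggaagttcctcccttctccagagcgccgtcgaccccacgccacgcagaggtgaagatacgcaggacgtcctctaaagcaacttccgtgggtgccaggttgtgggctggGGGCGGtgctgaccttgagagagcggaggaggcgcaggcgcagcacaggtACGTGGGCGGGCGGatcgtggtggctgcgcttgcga
The CECR5-AS1 window held 2 ACGTG matches, which are the 2 strands of 1 CACGTG, and the TMEM161B-AS1 window held 1. The other 3 windows held none, and no motif of the 3 was found in that of KRTAP5-AS1. The 5 printed windows are only part of those matched among the greatest changes. A promoter was matched for 8 of the 10 greatest increases and 5 of the 10 greatest decreases. ACGTG was found in 1 of those 8 (12.5%) and in 1 of those 5 (20%), so most of these windows lacked it. ACGTG was found in 32.9% of the 210 member promoters, in 21.0% of 200 promoters of their sense genes, in 27.2% of 9756 promoters of genes with FPKM of at least 0.5, and in 21.6% of all 27305 promoters of the same length. GGGCGG was found in 63.8% of member promoters, 72.0% of sense promoters, 71.4% of the expressed genes and 44.6% of all. CCAAT was found in 35.2% of member promoters, 33.5% of sense promoters, 37.2% of the expressed genes and 35.7% of all. TATAAA, the TATA box, was also searched and was found in 5.24% of member promoters, 7.50% of sense promoters, 5.44% of the expressed genes and 11.9% of all. A match is a run of letters and was not measured as a binding site.

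NFX1 itself had 56.0 FPKM in the NFX1 library and 4.21 FPKM in the vector library. Steps between low values put about 30.2 M fragments behind the NFX1 library and 26.3 M behind the vector library. The 10 hepatocyte and hepatoma markers all passed the limit of 0.5 FPKM. Their summed level was 11090 FPKM in the NFX1 library and 9597 FPKM in the vector library. SERPINA1 alone had 6807 FPKM with NFX1 and 5935 FPKM with vector, while ALB, TTR and FGB were low, at 0.776 to 1.96 FPKM over both libraries. Of the blood markers, PTPRC was listed at 0 in both libraries and CD14 stayed under the limit, while CD68 and LYZ had 47.9 to 52.6 FPKM. None of 3 endothelial and none of 3 fibroblast markers reached 0.5 FPKM. In RNA of a whole culture, fewer cells of a type and less RNA per cell cannot be told apart.

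The antisense RNAs were low and nearly level between the libraries. Of the 278, 65 had at least 5 FPKM in a library, 144 had 1 to 5 FPKM and 69 had 0.5 to 1 FPKM. The median level was 2.07 FPKM in the NFX1 library and 2.01 FPKM in the vector library, beside 8.39 FPKM with NFX1 and 8.51 FPKM with vector over all 12235 genes with at least 0.5 FPKM. The change of a gene is given as log2 of (NFX1 FPKM + 1) over (vector FPKM + 1), which understates the change of low genes. Its median was 0.02 over the antisense RNAs and 0.01 over all genes, and the quartiles of the members were -0.13 and 0.20. In all, 236 members reached the limit in both libraries, 19 in the NFX1 library alone and 23 in the vector library alone.

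**Figure D1:**
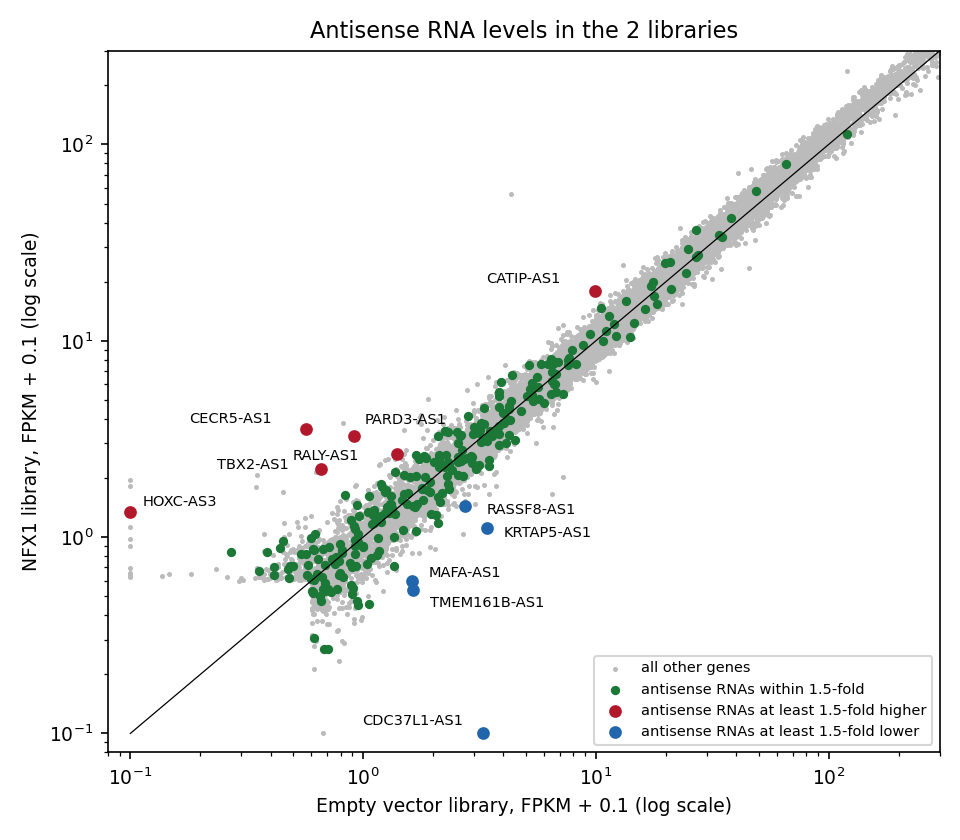
Level of each gene in the NFX1 library (vertical) and the empty vector library (horizontal), both as FPKM + 0.1 on log scales, with the line of equal levels. The 278 antisense RNAs are green, or red and blue where they differ by at least 1.5-fold on the FPKM + 1 scale; the 11 that do are labelled, and 10 of them lie under 5 FPKM in both libraries.

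The loci of 208 of the 278 members overlap another named gene, and it is not given whether the library kept the strand. The levels below can therefore hold reads of overlapping genes. The highest level was listed for PCNA-AS1, named after the sliding clamp of DNA replication. It had 112.5 FPKM in the NFX1 library and 119.6 FPKM in the vector library. MMP24-AS1, which RefSeq now lists as the protein-coding gene MMP24OS, had 79.0 FPKM in the NFX1 library and 65.3 FPKM in the vector library. AGAP2-AS1 had 57.7 FPKM in the NFX1 library and 48.6 FPKM in the vector library. UPK1A-AS1, opposite a gene for a uroplakin of the bladder lining, had 42.0 FPKM with NFX1 and 37.8 FPKM with vector. PIK3CD-AS2, inside the gene for the delta catalytic subunit of phosphoinositide 3-kinase, had 36.3 FPKM with NFX1 and 26.8 FPKM with vector. Its ratio had a 95% exact interval of 1.23 to 1.49. Such intervals are Clopper-Pearson intervals on estimated fragments, and they cover counting error only, not the spread between cultures.

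Several antisense RNAs were abundant where their sense gene was nearly silent. DSCAM-AS1 had 26.5 FPKM in the NFX1 library and 26.8 FPKM in the vector library, while DSCAM, a neuronal adhesion molecule, had 0.0108 FPKM with NFX1 and 0.0124 FPKM with vector. FGD5-AS1 had 21.9 FPKM in the NFX1 library and 24.4 FPKM in the vector library, while FGD5, an exchange factor of endothelial cells, had 0.00846 FPKM with NFX1 and 0.0146 FPKM with vector. ATP2A1-AS1, opposite the calcium pump of skeletal muscle, had 14.5 FPKM in the NFX1 library and 10.4 FPKM in the vector library, with ATP2A1 at 0.116 FPKM with NFX1 and 0.0857 FPKM with vector. In these pairs the level of the antisense RNA was set apart from that of the gene it is named after in both libraries.

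On the FPKM + 1 scale, at least 1.5-fold higher levels in the NFX1 library were found for 6 of the 278 antisense RNAs (2.16%). At least 1.5-fold lower levels were found for 5 (1.80%). Fold limits below are on this scale unless stated otherwise, so low members within them can differ by more in plain FPKM. Over all 12235 genes the shares were 0.441% higher and 0.204% lower. The other 267 members (96.0%) lay within 1.5-fold, against 99.4% of all genes. At 2-fold, 4 members were higher and 2 lower, against 0.0981% and 0.0327% of all genes. Of the 11 past 1.5-fold, 6 reached 0.5 FPKM in both libraries, 4 of them higher and 2 lower. The other 5 reached it in 1 library alone, so they could enter the list through the library in which they were high. All 11 were picked by their change, so the counting intervals given for them below only describe them.

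Loci are given here in hg19 as the table lists them, joined with overlapping genes. CECR5-AS1 (chr22:17618399-17646335) had the greatest increase, with 3.45 FPKM in the NFX1 library and 0.466 FPKM in the vector library, or about 50 fragments with NFX1 and 6 with vector. The change was 1.60, and the interval of the ratio ran from 3.11 to 20.7. Its sense gene CECR5, now HDHD5, had 56.1 FPKM in the NFX1 library and 43.9 FPKM in the vector library. In the GENCODE annotation the pair overlaps head to head with 19 bp of shared exon.

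PARD3-AS1 (chr10:35104696-35105350) had 3.17 FPKM in the NFX1 library and 0.813 FPKM in the vector library, about 29 fragments with NFX1 and 6 with vector, with an interval of 1.72 to 12.4 for the ratio. Its divergent partner PARD3, a scaffold of cell polarity, had 11.6 FPKM in the NFX1 library and 13.4 FPKM in the vector library, so the changes of the pair had opposite signs. The difference between their changes, 1.40, was the greatest of all pairs in that direction.

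HOXC-AS3 (chr12:54377735-54384062), from the HOXC cluster of developmental transcription factor genes, had 1.24 FPKM in the NFX1 library and was listed at 0 in the vector library. The neighbouring HOXC genes were level. HOXC10 had 22.7 FPKM with NFX1 and 22.0 FPKM with vector, and HOXC9 had 9.35 FPKM with NFX1 and 9.51 FPKM with vector. A separate row that joins HOXC-AS1 and HOXC-AS2 had 9.43 FPKM in the NFX1 library and 6.17 FPKM in the vector library, a change of 0.54.

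TBX2-AS1 (chr17:59470817-59476967) had 2.12 FPKM in the NFX1 library and 0.557 FPKM in the vector library, about 32 fragments with NFX1 and 7 with vector, with an interval of 1.73 to 10.7. TBX2, a T-box transcription factor, had 2.37 FPKM with NFX1 and 1.14 FPKM with vector. Its change of 0.66 was the only one past 1.5-fold on the FPKM + 1 scale among the 236 sense genes measured. On that scale TBX2-AS1 and TBX2 were therefore the only pair in which both members were past it. CATIP, the sense gene of CATIP-AS1, was just under it at 0.56, and its plain FPKM ratio was past it. The exons of TBX2-AS1 and TBX2 do not overlap in the annotation.

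CATIP-AS1 (chr2:219135115-219232961) was the only one of the 11 above 5 FPKM, with 17.8 FPKM in the NFX1 library and 9.79 FPKM in the vector library, about 271 fragments with NFX1 and 130 with vector. The interval of its ratio, 1.47 to 2.25, was the narrowest of the 11 on a log scale. CATIP, a protein of cilium assembly, had 0.547 FPKM with NFX1 and 0.0458 FPKM with vector, and 644 bp of its exons overlap those of CATIP-AS1. Beside CATIP, the table has within 10 kb PNKD, with 160.2 FPKM in the NFX1 library and 132.1 FPKM in the vector library, TMBIM1, with 191.4 FPKM with NFX1 and 185 FPKM with vector, and AAMP, with 146.4 FPKM with NFX1 and 129.8 FPKM with vector. Whether the library kept the strand is not given in the sources used here, so reads of overlapping genes cannot be told apart.

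RALY-AS1 (chr20:32571079-32670991) had 2.56 FPKM in the NFX1 library and 1.30 FPKM in the vector library, with an interval of 1.20 to 3.49. RALY, an RNA-binding protein of the hnRNP family, had 62.9 FPKM with NFX1 and 51.7 FPKM with vector. Both values were higher in the NFX1 library, the antisense RNA by the larger factor.

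In the other direction, CDC37L1-AS1 (chr9:4676601-4679480) was listed at 0 in the NFX1 library and had 3.18 FPKM in the vector library, which corresponds to about 29 fragments. CDC37L1, a relative of the HSP90 co-chaperone CDC37, had 2.11 FPKM with NFX1 and 2.30 FPKM with vector, so the divergent partner was nearly level. This antisense RNA and HOXC-AS3 were the 2 members listed at 0 in a library. A value of exactly 0 in a table of estimates can be a failed estimate, so no ratio is given for either.

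KRTAP5-AS1 (chr11:1593672-1620414), from the cluster of keratin-associated protein genes of hair, had 1.01 FPKM in the NFX1 library and 3.30 FPKM in the vector library, about 17 fragments with NFX1 and 47 with vector, with an interval of 0.170 to 0.558. TMEM161B-AS1 (chr5:87564699-87734907) had 0.435 FPKM in the NFX1 library and 1.54 FPKM in the vector library, with an interval of 0.113 to 0.668. Its sense gene TMEM161B was also lower in the NFX1 library, at 2.37 FPKM against 3.11 FPKM with vector. The 2 overlap head to head, with 185 bp of shared exon.

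MAFA-AS1 (chr8:144499849-144501320) had 0.496 FPKM in the NFX1 library and 1.52 FPKM in the vector library, about 6 fragments with NFX1 and 17 with vector, with an interval of 0.0992 to 0.817. MAFA, a transcription factor of insulin-producing cells, was level at 2.50 FPKM with NFX1 and 2.49 FPKM with vector. RASSF8-AS1 (chr12:26106770-26232825) had 1.34 FPKM in the NFX1 library and 2.65 FPKM in the vector library, with an interval of 0.301 to 0.807, while RASSF8 had 1.04 FPKM with NFX1 and 1.11 FPKM with vector. The intervals of these 4 RNAs lay below 1, but the 4 were picked by their decrease, so this is no separate support for it. TMEM161B-AS1 and MAFA-AS1 reached 0.5 FPKM in the vector library alone. None of the 4 had over 50 estimated fragments in either library.

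**Figure D2:**
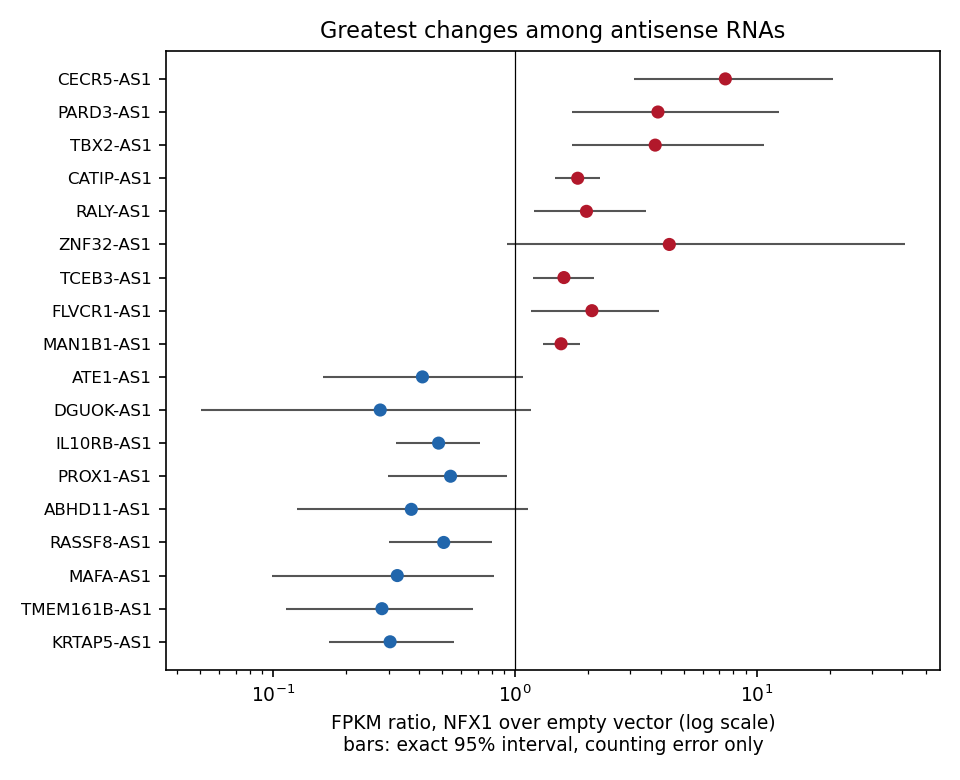
Ratio of FPKM, NFX1 over empty vector (log scale), for the antisense RNAs among the 10 greatest increases (red) and the 10 greatest decreases (blue) by the log2 change, top to bottom, with the 2 members listed at 0 left out. Bars are exact 95% intervals of counting error; that of CATIP-AS1, at 1.47 to 2.25, is narrow beside that of ZNF32-AS1, at 0.927 to 40.9.

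The antisense RNAs named here lay just inside 1.5-fold only on the FPKM + 1 scale, and their plain FPKM ratios were past it. At the upper end, ZNF32-AS1 had 0.741 FPKM in the NFX1 library and 0.170 FPKM in the vector library. TCEB3-AS1 had 6.08 FPKM with NFX1 and 3.81 FPKM with vector, and FLVCR1-AS1 had 1.53 FPKM with NFX1 and 0.736 FPKM with vector. MAN1B1-AS1, divergent from a mannosidase gene of the endoplasmic reticulum, had 6.58 FPKM in the NFX1 library and 4.24 FPKM in the vector library, with an interval of 1.31 to 1.85. At the lower end lay ABHD11-AS1 with 0.358 FPKM in the NFX1 library and 0.960 FPKM in the vector library, PROX1-AS1 with 1.08 FPKM with NFX1 and 1.99 FPKM with vector, and IL10RB-AS1 with 0.609 FPKM with NFX1 and 1.26 FPKM with vector. PROX1 is a transcription factor of liver and lymphatic cells, and had 4.56 FPKM in the NFX1 library and 5.16 FPKM in the vector library.

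Counting intervals excluded 1 upwards for 36 (13.2%) and downwards for 19 (6.96%) of the 273 members with a transcript length, against 23.8% and 11.2% of all 11973 genes with one. Members lay lower than other genes, and intervals are wider for lower genes. Among genes under 5 FPKM the shares were 8.96% and 6.60% of 212 members, against 4.48% and 6.61% of all such genes. Base composition was unlike between them. At 1 to 5 FPKM the median transcript GC content was 51.3% in members and 46.4% in other genes, with median changes of 0.03 and -0.05. The intervals were not corrected for this, and its part in the shares was not tested. In the authors' deposited table, 5 of the 278 members (1.80%) had a p-value under 0.05, near the 1.45% of the 14994 rows tested. The lowest was that of TBX2-AS1, 0.0129 in the authors' deposited table, followed by MAN1B1-AS1 at 0.0281 and TMEM161B-AS1 at 0.0328. None was marked significant there, against 0.120% of the rows, and the q-value of each of the 278 in the authors' deposited table was 0.999. Those values come from 1 library per group.

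Shares past 1.5-fold differed with level and with transcript length. Among genes whose greater FPKM was 1 to 5, 5 of 144 antisense RNAs were higher and 5 lower (3.47% each), against 0.922% and 0.461% of all 3472 genes in that range. At 5 FPKM or above, 1 of 65 was higher and none lower, against 0.195% and 0.104%. At 0.5 to 1 FPKM none of 69 was past the limit, against 0.665% and 0.0950%. With 1 FPKM added, values this low can hardly reach the limit, so the shares in that range are largely set by the measure. Of the 11, 9 had a median transcript under 600 bp, a length chosen after the values were seen, and 63 of the 278 members did. Among genes of 1 to 5 FPKM with such short transcripts, 4 of 37 antisense RNAs were higher and 4 lower (10.8% each), against 2.75% and 1.03% of 291 other genes. With longer transcripts, 1 of 107 was higher and 1 lower (0.935% each), against 0.448% and 0.207% of 2901 other genes. The part of length and level in these shares was not tested.

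LINC RNAs (long intergenic noncoding RNAs) are another class of low level. Of 110 with at least 0.5 FPKM, 3 were at least 1.5-fold higher (2.73%) and 2 lower (1.82%), beside 2.16% and 1.80% of the antisense RNAs. None was past 2-fold and their changes ran from -0.89 to 0.68, while 6 antisense RNAs were past it and theirs ran from -2.06 to 1.60. The difference between the classes was not tested. Their median level was 1.89 FPKM in the NFX1 library and 1.90 FPKM in the vector library, and their median change was 0.02. The 12 SNHG RNAs, hosts of small nucleolar RNAs, were far more abundant, with a median of 83.6 FPKM in the NFX1 library and 59.7 FPKM in the vector library. They had a median change of 0.23, all 12 above 0, against 151 of 278 antisense RNAs above 0. With 1 library a group this difference in medians is a description of these libraries.

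**Figure D3:**
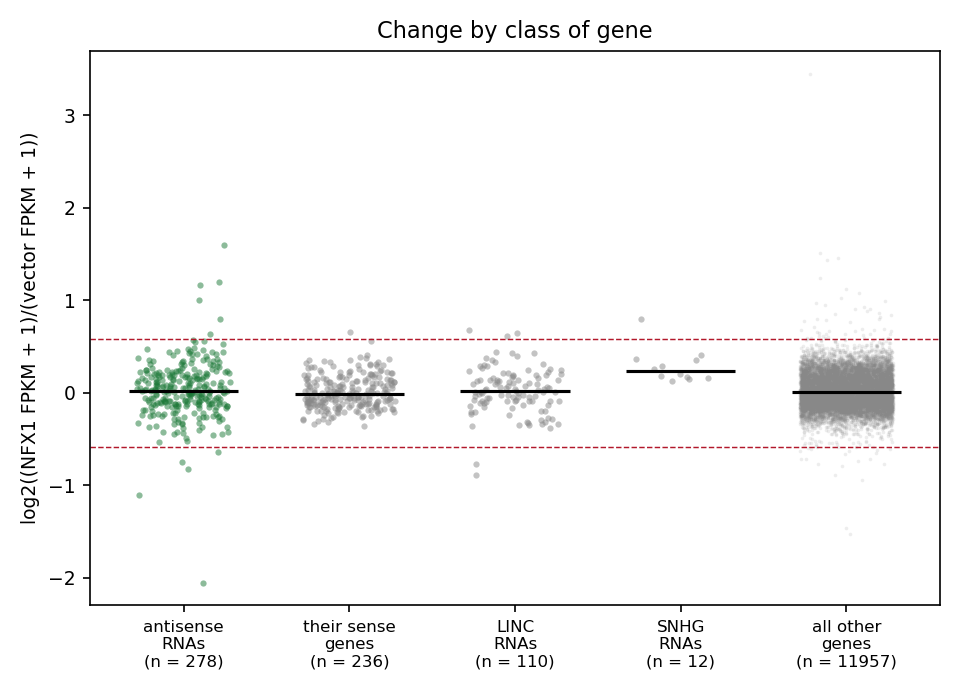
Change of each gene, log2 of (NFX1 FPKM + 1) over (vector FPKM + 1), by class, with the median as a bar and the 1.5-fold limit as dashed lines. Antisense RNAs spread from -2.06 to 1.60 around a median of 0.02, their 236 sense genes from -0.36 to 0.66, and the 12 SNHG RNAs lie above 0.

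A sense gene with at least 0.5 FPKM was found by symbol for 237 antisense RNAs, which gave 237 pairs over 236 sense genes. Another 27 had a sense gene under the limit, and 14 had no row of their sense gene alone. The median change of the sense genes was -0.01, and the median of antisense change minus sense change was 0.02. In 134 of the 237 pairs both changes had the same sign, 69 both higher and 65 both lower, while in 59 the antisense RNA was higher and the sense gene lower, and in 44 the reverse. Across the 237 pairs Pearson's r was 0.27 and Spearman's rho 0.21. Pairs share both libraries, depth and local base composition. With the trend on base composition, length and expression removed, r was 0.15 and rho 0.05 over 234 pairs. Among the 53 pairs whose antisense RNA reached 5 FPKM, r was 0.45 and rho 0.39 as deposited. For these 53 no value with the trend removed is given, so how far they depend on it was not tested.

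**Figure D4:**
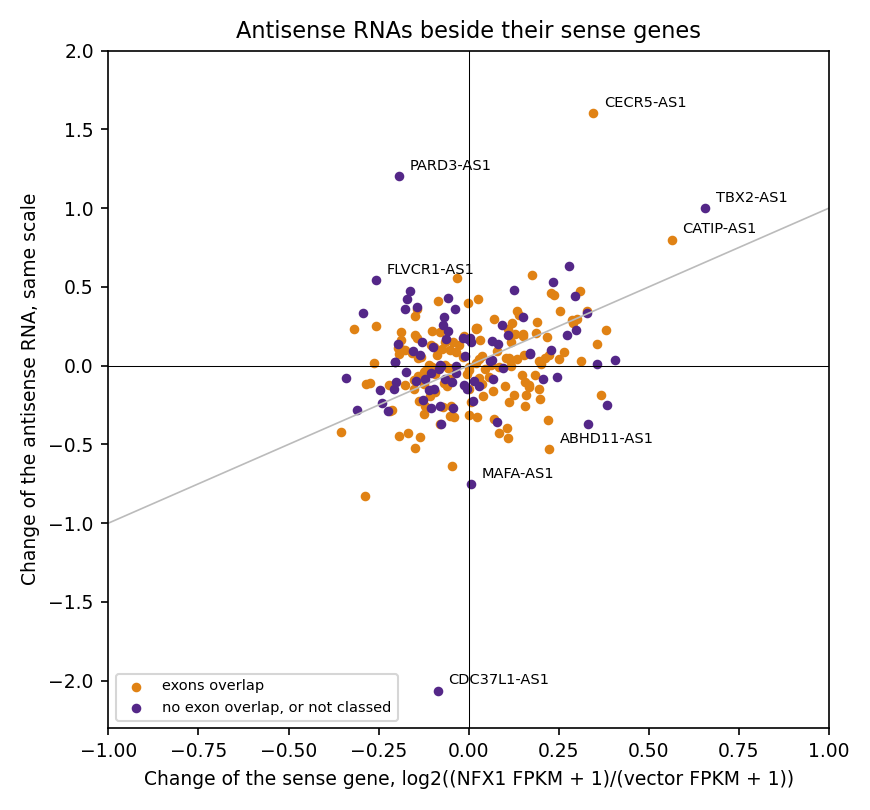
Change of each antisense RNA (vertical) and of its sense gene (horizontal), both log2 of (NFX1 FPKM + 1) over (vector FPKM + 1), for the 237 pairs, with a grey line of equal change. Orange pairs share exon sequence in the GENCODE annotation; most of the cloud lies near 0, with CECR5-AS1 at 1.60 and CDC37L1-AS1 at -2.06 far off the line.

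In the 6 pairs that differed by the most, the antisense RNA had the larger change of the 2. PARD3-AS1 and CECR5-AS1 led upwards, followed by FLVCR1-AS1, which differed by 0.80 from FLVCR1, a transporter of haem and choline. FLVCR1 had 5.48 FPKM in the NFX1 library and 6.74 FPKM in the vector library. CDC37L1-AS1 led downwards with a difference of -1.98, followed by MAFA-AS1 at -0.76 and ABHD11-AS1 at -0.75. ABHD11, a mitochondrial hydrolase, had 10.5 FPKM in the NFX1 library and 8.84 FPKM in the vector library.

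In level, the antisense RNA had a median of 21.4% of the FPKM of its sense gene. It was above the sense gene in 50 pairs and under 10% of it in 82. Spearman's rho between the levels over the 237 pairs was 0.02. MMP24-AS1 stood highest over its sense gene; MMP24, a membrane-bound matrix metalloproteinase, had 0.527 FPKM in the NFX1 library and 0.404 FPKM in the vector library. AGAP2-AS1 stood over AGAP2, which had 1.31 FPKM with NFX1 and 1.28 FPKM with vector. At the other end, MIF-AS1 had 7.96 FPKM in the NFX1 library and 6.30 FPKM in the vector library, while MIF, a cytokine, had 6373 FPKM with NFX1 and 5172 FPKM with vector, and 687 bp of their exons overlap. ENO1-AS1 had 0.414 FPKM with NFX1 and 0.792 FPKM with vector, which was 0.0344% of the level of the glycolytic enzyme gene ENO1.

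**Figure D5:**
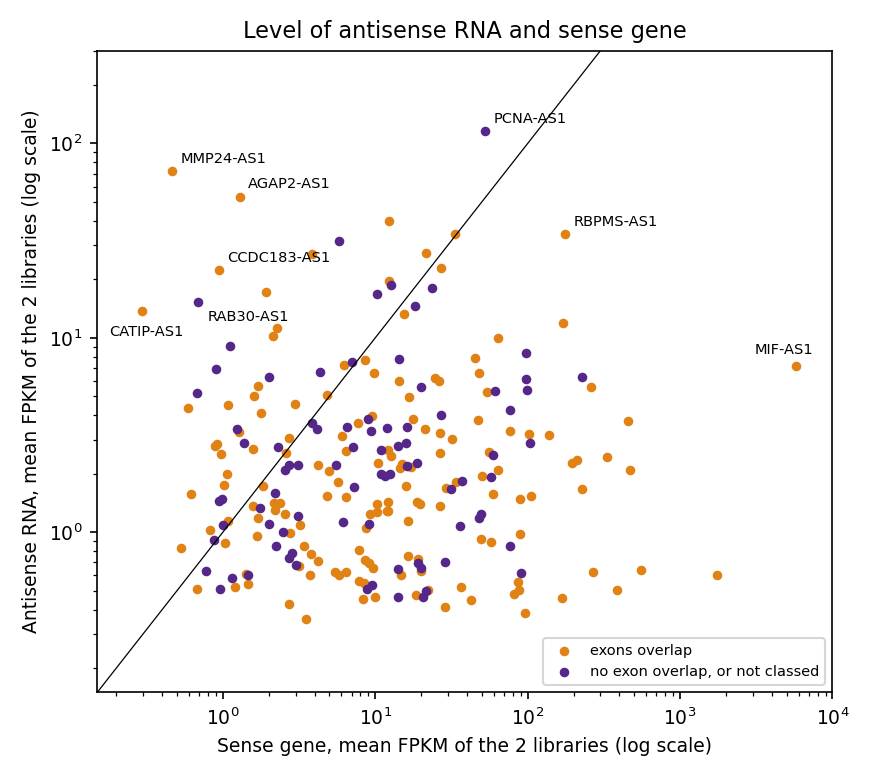
Mean FPKM of the 2 libraries for each antisense RNA (vertical) and its sense gene (horizontal), log scales, with the line of equal levels, for the 237 pairs. Spearman's rho is 0.02, 50 pairs lie above the line, and MIF-AS1 lies farthest to the right.

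Pairs were also sorted by their layout in GENCODE release 29, which is on another build than the hg19 table and was used for layout, exon overlap and lengths, not for coordinates. Head-to-head overlap was the commonest layout with 100 members, followed by divergent starts within 1 kb (52), tail-to-tail overlap (49), antisense RNAs inside the sense gene (44) and those spanning it (16). Another 3 lay apart on the opposite strand and 14 could not be classed. Median changes of the antisense RNA ran from -0.02 in tail-to-tail pairs to 0.07 inside the sense gene. Head-to-head pairs held 2 of the 6 higher and 2 of the 5 lower members, divergent pairs 1 of each. Exons of the 2 strands overlapped in 172 pairs and not in 92. Of these, the 153 overlapping pairs with a measured sense gene gave a Pearson r of 0.34 and the 80 without overlap gave 0.17. RefSeq has since renamed 40 of the members with the suffix -DT, for divergent transcript, and their median change was 0.01.

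By type, RefSeq lists 262 members as long noncoding RNA, 3 as antisense RNA, 6 as transcribed pseudogenes and 4 as protein-coding. The last are MMP24-AS1, NCBP2-AS2, TOPORS-AS1 and FAM83H-AS1. NCBP2-AS2 had 18.9 FPKM in the NFX1 library and 17.2 FPKM in the vector library, and TOPORS-AS1, now SMIM27, had 9.82 FPKM with NFX1 and 10.6 FPKM with vector. For 3 members no RefSeq entry of their own was matched.

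Antisense RNAs of the HOX clusters numbered 7, of which HOXC-AS3 alone was past 1.5-fold. HOXD-AS2 had 2.39 FPKM in the NFX1 library and 1.63 FPKM in the vector library, and HOXB-AS3 had 0.745 FPKM with NFX1 and 1.07 FPKM with vector. HOXC13-AS, the most abundant single-symbol member of the clusters, had 6.86 FPKM with NFX1 and 6.36 FPKM with vector. Of 22 antisense RNAs of zinc-finger and other transcription factor genes, 15 had a change above 0 and 7 below, with a median of 0.15 as deposited and 0.03 once the trend was removed, and none was past 1.5-fold. ZNF674-AS1 had 2.53 FPKM in the NFX1 library and 1.59 FPKM in the vector library, and ZNF790-AS1 had 2.19 FPKM with NFX1 and 3.36 FPKM with vector. FOXD3-AS1, the most abundant of them, had 29.3 FPKM with NFX1 and 24.7 FPKM with vector.

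The 2 antisense RNAs of the hypoxia group, HIF1A-AS2 and ENO1-AS1, were within 1.5-fold on the FPKM + 1 scale. ENO1-AS1, whose levels are given above, had the lower change of the 2, -0.34, and its plain FPKM ratio was past 1.5-fold. HIF1A-AS2, from the 3′ end of the gene for the oxygen-regulated factor HIF-1α, had 7.51 FPKM in the NFX1 library and 8.13 FPKM in the vector library, and HIF1A had 13.2 FPKM with NFX1 and 15.4 FPKM with vector. The interval of the HIF1A-AS2 ratio was 0.709 to 1.20, so no difference was detectable at this depth. At the gene of the liver transcription factor C/EBP-alpha, CEBPA-AS1 had 2.31 FPKM with NFX1 and 2.23 FPKM with vector.

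The group of cell cycle and DNA genes was taken by symbol prefix and held 8 members. CDC37L1-AS1, which fell into it by the prefix CDC although CDC37L1 is a relative of a co-chaperone, alone was past 1.5-fold, and 3 changes were above 0 and 5 below. OIP5-AS1, which binds microRNAs and the RNA-binding protein HuR, had 12.2 FPKM in the NFX1 library and 14.4 FPKM in the vector library, with an interval of 0.717 to 0.995. The 3 members at immune and lysosomal genes were HLA-F-AS1 with 0.931 FPKM in the NFX1 library and 0.521 FPKM in the vector library, LGALS8-AS1 with 3.20 FPKM with NFX1 and 4.12 FPKM with vector, and ATP6V0E2-AS1 with 0.519 FPKM with NFX1 and 0.381 FPKM with vector. None of these 3 was past 1.5-fold.

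Of antisense RNAs that have been named in studies of hepatocellular carcinoma, 21 passed the limit and none was past 1.5-fold. Of their changes, 7 were above 0 and 14 below, with a median of -0.05, beside 0.02 for all 278 members and 0.01 for all genes. FOXD2-AS1 had 3.21 FPKM in the NFX1 library and 2.52 FPKM in the vector library, and MAPKAPK5-AS1 had 5.39 FPKM with NFX1 and 6.64 FPKM with vector. TMPO-AS1 had 3.43 FPKM with NFX1 and 3.08 FPKM with vector. ZEB1-AS1, opposite a regulator of epithelial-mesenchymal transition, had 0.711 FPKM in the NFX1 library and 1.04 FPKM in the vector library, about 12 fragments with NFX1 and 15 with vector.

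Genes whose products act on antisense RNA were within 1.5-fold, as were 99.4% of all genes, so lists of this size with none past it are near the background. Of the nuclear exosome and its cofactors, which degrade such RNAs, none of 22 was past the limit, and the median change was -0.04. EXOSC5 had 121.3 FPKM in the NFX1 library and 93.3 FPKM in the vector library, the greatest change of the list at 0.37, and EXOSC8 had 8.80 FPKM with NFX1 and 10.3 FPKM with vector, the lowest at -0.20. None of 12 cleavage and termination factors, 12 chromatin partners and 9 enzymes of double-stranded RNA was past 1.5-fold, with medians of 0.03, 0.02 and -0.05. XRN2, the nuclear exonuclease of termination, had 22.1 FPKM with NFX1 and 24.7 FPKM with vector, and AGO2, an Argonaute of RNA silencing, had 13.1 FPKM with NFX1 and 15.3 FPKM with vector. Of 16 other regulatory long noncoding RNAs, 10 passed 0.5 FPKM and none was past 1.5-fold. ZFAS1 had 171.8 FPKM in the NFX1 library and 154.6 FPKM in the vector library.

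Changes ran with base composition in the antisense RNAs as in other genes. Over 5 near-equal groups of the 273 members by transcript GC content, from a median of 44.0% to 60.5%, the median changes were -0.05, -0.07, 0.03, 0.10 and 0.14. In other genes of the same GC ranges they were -0.10, -0.06, 0.02, 0.11 and 0.18. With the trend on GC content, length and expression removed, 8 members were at least 1.5-fold higher and 5 lower, and 10 of the 11 past the limit as deposited were still past it. The exception was RASSF8-AS1, with a change of -0.64 as deposited and -0.58 with the trend removed. AGAP2-AS1 had 0.24 as deposited and 0.01 with it removed, and GATA2-AS1 had 0.22 and 0.02.

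At the limit of 0.5 FPKM, the members just inside were FAM222A-AS1 with 0.431 FPKM in the NFX1 library and 0.503 FPKM in the vector library, CAPN10-AS1 with 0.419 FPKM with NFX1 and 0.506 FPKM with vector, and DLGAP4-AS1 with 0.510 FPKM with NFX1 and 0.498 FPKM with vector. Just outside were ADNP-AS1 with 0.498 FPKM in the NFX1 library and 0.145 FPKM in the vector library, DLX2-AS1 with 0.492 FPKM with NFX1 and 0.0808 FPKM with vector, and SAP30L-AS1 with 0.397 FPKM with NFX1 and 0.490 FPKM with vector.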

How the data were processed

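RNA-seq of 2 libraries of PLC/PRF/5 cells under hypoxia was used, grouped by the genotype label. The submitters' processing notes name hg19, Cufflinks 2.2.1 and TopHat2 2.1.0; annotation, settings, strandedness and scaling between libraries are not given in the sources used here. Per the file headers, the deposited table gives FPKM for each library, and the authors' log2 fold change, test statistic (a score), p-value and q-value for each row.

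The table has 28658 rows and 24991 single symbols; a repeated symbol was represented by its row of highest mean. For the 12235 genes with at least 0.5 FPKM in a library, the log2 ratio of FPKM + 1, NFX1 over vector, was taken, with a limit of 1.5-fold. Without replicates, no p-value of a difference was computed. The table has no counts, so depth was estimated: 43.7% of 4056 low rows lay within 0.01 log2 of ratios of whole fragments (median over other steps 7.25%), and 3 olfactory receptor genes gave the totals. Fragments came from GENCODE 29 median transcript lengths, and a wrong length makes an interval too wide or too narrow. A spline trend of the change (on transcript GC content, length and expression) was fitted on 10967 genes, in 1 form. The steps were tested on simulated data. Lengths, layouts and promoters were matched by symbol to GENCODE or RefSeq, on another build than the table. The layout of pairs and exon overlap were added after values had been seen; only strand from a reference of the same build had been planned.

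The members, lists and limits were chosen with earlier results of these data known. The rule for named genes took every member of at least 5 FPKM, the 10 greatest changes in each direction, the hepatocellular carcinoma list, their sense genes, the 3 most different pairs in each direction, members at the FPKM limit, and the 3 greatest changes of other lists in each direction. It selected 101 members, of which those that carry a comparison are printed. A result that the rule selects is not reported here, though it stayed in the counts and medians. HOXC9, HOXC10, PNKD, TMBIM1, AAMP, ZFAS1, FAM83H-AS1 and the joined HOXC row were chosen after their values were seen. Alternatives covered the pseudocount, FPKM limit, fold limit, scaling, trend, summed rows, row status and overlapping loci. The software was matplotlib 3.10.9, scipy 1.17.1, pandas 2.3.3 and numpy 2.4.6 under Python 3.11.15.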

Additional observations from a re-analysis of the deposited data

How the results depend on the processing

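The counts of antisense RNAs past the limit depended on the pseudocount and the limit. With a pseudocount of 0.1, 27 were at least 1.5-fold higher and 19 lower, and with a pseudocount of 5, 2 were higher and 1 lower. Counting every difference of at least 25%, 36 were higher and 26 lower, and at 2-fold 4 were higher and 2 lower. These follow from how much weight low values get and from the limit itself. The counts stayed at 6 and 5 under FPKM limits of 1 and above 0, a mean of at least 0.5 FPKM (chosen after seeing the data), both scalings, summed rows and row status. With a pseudocount of 5, 3 of the 11 RNAs were past 1.5-fold, and with the trend removed 10 were, all 11 in the same direction. The pseudocount cannot change a direction, all 278 members had the status OK, and the scaling factors of 0.991 and 0.974 were too near 1 to turn a 1.5-fold change, so those settings do not test the direction. The median change of the antisense RNAs ran from -0.003 without a filter to 0.05 at 1 FPKM, and stayed near 0. Over the 80 pairs with no exon overlap, also chosen after seeing the data, the median of antisense minus sense change was 0.06. No paired analysis was possible because each group has 1 library and the labels carry no replicate numbers. Depth limits the low members, and 213 of 278 lay under 5 FPKM.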

Other observations

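Rows that join an antisense symbol with other symbols stayed out of the comparisons. The row of LRRC75A-AS1 and the small nucleolar RNA SNORD49B had 532 FPKM in the NFX1 library and 515.4 FPKM in the vector library, above every single-symbol antisense RNA. LIPE-AS1 with a LOC symbol had 14.8 FPKM with NFX1 and 13.8 FPKM with vector, TSPEAR-AS1 with TSPEAR-AS2 had 4.69 FPKM with NFX1 and 4.81 FPKM with vector, and OR2A1-AS1 with 3 other symbols had 0.623 FPKM with NFX1 and 0.190 FPKM with vector.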
